A study of Kluyveromyces marxianus and Kluyveromyces lactis with 30 samples.

Results

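The compact divergent promoters of Kluyveromyces marxianus were taken as the intergenic gaps of 1 to 400 bases that lie between a gene on the minus strand and the next gene on the plus strand, so that the genes on the 2 sides are read away from each other. Genes were ordered by their start on each sequence of the deposited annotation, and the rule used no measured value. It gave 604 gaps out of 5182 neighbouring gene pairs, or of 1400 divergent gaps of 1 base or more. The other 796 divergent gaps were over 400 bases long and served as the main comparison, beside 1342 tandem gaps (genes read the same way) and 1155 convergent gaps (genes read towards each other) of 1 to 400 bases. The 604 gaps are flanked by 1208 different genes, 23.2% of the 5207 genes counted.

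The measurements were poly(A)-captured RNA-seq of K. marxianus Km31, a budding yeast strain, in 15 libraries. Control cultures were grown at 28C, and the other 4 groups were grown at 39C (heat) or with MMS (methyl methanesulfonate, an agent that alkylates DNA), ethanol or caffeine, each with 3 replicates that the titles call biological. The labels give no dose or temperature for the 3 chemical groups. All 15 cultures shared the strain and the rich medium YPD. They were started at an optical density of 0.05 and collected at 0.4 to 0.85, and grew in the stated condition until then, so each group is a growing culture of 1 strain.

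In a divergent arrangement the start sites of both genes face a common upstream region, and the transcription factor sites and the nucleosome-free stretch in it can in principle serve either gene. In budding yeasts such shared regions are common because the genomes are compact. The galactose-induced GAL1 and GAL10 genes of Saccharomyces cerevisiae, which share a set of activator sites, are the textbook case, whereas many other divergent neighbours there are regulated apart.

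The gaps ran from 2 to 400 bases, with a median of 254 and quartiles of 175.8 and 319, against a median of 781.5 for the divergent gaps over 400. They were spread over the genome, with 602 of them on the 9 largest of the 11 sequences that hold one. No gene belonged to 2 of them. A gene's ends here are the ends of its annotated parts. In 75.8% of the 5049 genes with a single part the length was a multiple of 3, as for coding sequence. The remaining single-part genes did not meet this, so a gap is not in each case the distance between coding regions. Transcription start sites lie inside a gap or beyond it at unknown places. A further 29 divergent neighbours overlapped and were not members. In 39 members at least 1 gene overlapped some other gene, and in 11 a gene reached into the gap itself, which left 565 free of both. No gene names are paired with the identifiers in the sources used here, so the members are given by identifier or position and marker genes of the stresses were not checked. Nor do those sources name the genome build of the coordinates.

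Libraries outside ethanol held 15991714 to 39136485 gene counts, and the 3 ethanol libraries held 40172790 to 102879059. The ethanol libraries were also counted with another program and on other features than the other 12. An ethanol value is therefore a difference of culture and counting method together, and the contributions cannot be told apart. There were 6 member genes listed at 0 in all ethanol libraries that had over 10 CPM (counts scaled to a common library total) elsewhere, and all 6 overlap another gene. Both genes passed the filter on low counts in 595 members, 1 gene in 6 and neither in 3, so that 1196 member genes were tested. Levels below are CPM after TMM scaling, divided by gene length in kilobases where genes are compared with each other.

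In the control, genes beside compact divergent gaps were less abundant than genes beside long ones and closer to their partner in level. The median level of a pair (the geometric mean of its genes) was 27.3 ± 0.707 CPM per kb (SD over 3 control libraries) in the members and 53.0 ± 0.198 in divergent pairs over 400, with 35.1 in tandem, 37.9 in convergent and 41.5 in all neighbouring pairs. The difference between members and long divergent gaps was many times the spread between control libraries, which is the only error measured here. That spread does not cover the spread between pairs, which was wide (quartiles of gene levels below). The higher gene of a member stood a median of 2.45 ± 0.0134-fold above the lower one per kb, against 3.75 ± 0.0352-fold over 400 bases, 3.2 in tandem and 2.95 in convergent pairs. In 39.8% of members the genes lay within 2-fold of each other and in 14.6% they lay over 10-fold apart, against 29.5% and 25% over 400 bases. The plus-strand gene was the higher one in 47.6%. A smaller fold between partners did not mean that their levels went together. Across the 595 members the correlation of the log2 levels of the partners was 0.07 (Pearson) and 0.13 (Spearman), beside 0.13 and 0.10 in the 784 long divergent pairs and 0.08 and 0.10 in all pairs. These points share the same 3 libraries. The quartiles of member gene levels were 13.5 and 54.5 CPM per kb against 20.3 and 133 for genes of the long gaps, a narrower range.

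Abundance was higher beside longer gaps, within the members from 101 bases on and further beyond 400 bases. The median pair level was 25.5 ± 1.73 CPM per kb in gaps of 1 to 100 bases, 23.2 ± 1.23 in 101 to 200, 26.5 ± 0.489 in 201 to 300 and 30.4 ± 0.804 in 301 to 400 (SD, n = 3). It then stood at 36.8 ± 1.04 in gaps of 401 to 600, 59.8 ± 0.899 in 601 to 1000 and 68.2 ± 1.5 above 1000 bases. The fold between partners followed a similar course, from 2.36 to 2.64 in the 4 classes up to 400 bases, 2.81 in 401 to 600 and 4.35 and 3.96 in the longest. The pair with the most abundant lower gene, in the gap at chromosome 5, bases 548313 to 548650, held 1086 and 430 CPM per kb in the control, far above the median member.

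**Figure D1:**
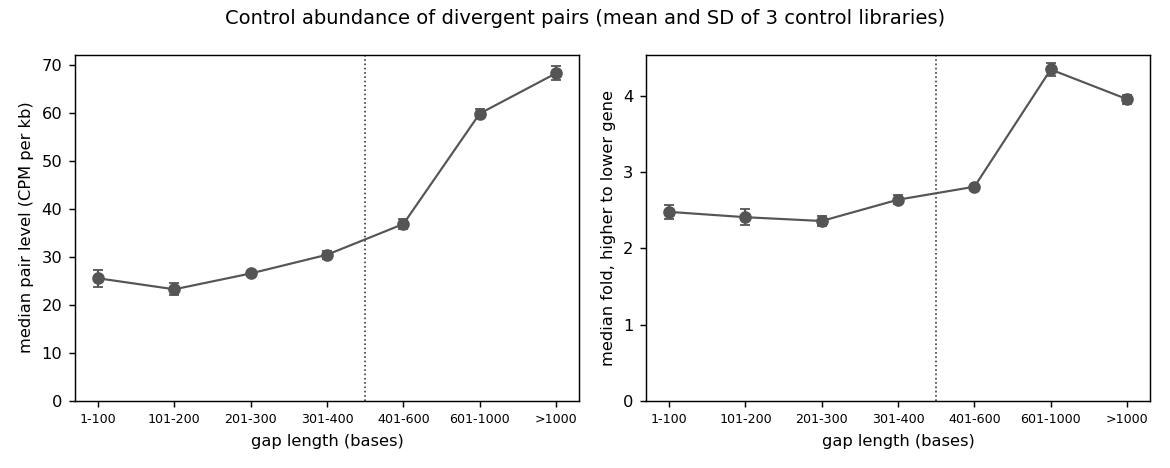
Control level of divergent gene pairs by gap length, as the median over pairs of the pair's geometric mean in CPM per kb (left) and of the fold between the higher and the lower gene (right). Points and bars are the mean and SD of 3 control libraries, and the dotted line is the 400-base bound. Levels stay between 23.2 and 30.4 CPM per kb up to 400 bases and reach 68.2 above 1000.

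Genes flanking compact divergent gaps changed about as often as genes at large in the chemical stresses, somewhat less often in heat, and by 2-fold or more less often in each stress. In heat, 660 of the 1196 tested member genes (55.2%) passed edgeR's quasi-likelihood test at a Benjamini-Hochberg adjusted p under 0.05, against 59.5% of all 5098 genes tested. Of these 319 rose, or 26.7% against 30.0% of all genes, and 341 fell, or 28.5% against 29.5%. In MMS 719 changed (60.1% against 62.2%), of which 399 rose (33.4% against 31.2%) and 320 fell (26.8% against 31.1%). In ethanol 847 changed (70.8% against 71.7%), of which 504 rose (42.1% against 37.6%) and 343 fell (28.7% against 34.1%). In caffeine 837 changed (70.0% against 71.6%), of which 513 rose (42.9% against 39.5%) and 324 fell (27.1% against 32.1%). With another scaling of the libraries in edgeR, RLE (relative log expression) factors, the MMS balance moved from 399 against 320 to 364 against 355. It became 309 against 354 in heat, 476 against 373 in ethanol and 464 against 366 in caffeine. Fewer member genes rose in each stress than with TMM. In bulk RNA a change in every cell and a change in the share of cells that express a gene cannot be told apart.

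Larger changes were scarcer among member genes. A change of at least 2-fold with the same test was found in 85 member genes in heat (7.11% against 10.5% of all genes) and 94 under MMS (7.86% against 10.5%). Ethanol gave 202 (16.9% against 21.0%) and caffeine 205 (17.1% against 21.5%). For genes of the long divergent gaps the shares were 13.0%, 12.4%, 21.9% and 25.7%. The median size of a member gene's change, as an absolute log2 value, in heat was 0.30, against 0.34 over all genes. It was 0.34 against 0.35 under MMS, 0.45 against 0.47 under ethanol and 0.45 against 0.48 under caffeine. The genes beside short divergent gaps thus moved less than the genome as a whole, by counts that were described and not tested against each other.

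When both genes of a compact pair changed, they moved the same way more often than opposite ways, as neighbouring genes at large also did, with the highest share in MMS. In heat 56 pairs had both genes up (9.41% of 595, against 10.8% of all 4965 neighbouring pairs) and 58 had both down (9.75% against 10.6%). Together these 114 pairs are 19.2%, against 21.4% of all pairs, while 69 pairs split, with 1 gene up and the other down (11.6% against 15.3%). In 290 members a single gene was called, and in 122 neither was. Counted over all tested pairs, members in heat thus had smaller shares than all neighbours both of pairs moving together and of split pairs.

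In MMS both genes rose in 89 members (15% against 11.9%) and both fell in 68 (11.4% against 11.9%). The sum of 157 pairs is 26.4% against 23.8% of all pairs, with 62 split pairs (10.4% against 15.2%), 277 with 1 gene called and 99 with none. With RLE scaling the order of the directions was the other way round, with 73 pairs up and 77 down. In ethanol 118 rose together (19.8% against 16.2%) and 70 fell together (11.8% against 14.0%). These 188 pairs are 31.6% against 30.2%, beside 108 split pairs (18.2% against 21.0%), 251 with 1 gene called and 48 with none. Caffeine was close to ethanol. There 125 rose together (21.0% against 17.7%) and 62 fell together (10.4% against 12.2%), 187 in all (31.4% against 29.9%). Another 108 were split (18.2% against 21.7%), 243 had 1 gene called and 57 had none. With RLE scaling heat gave 56 pairs up and 63 down, ethanol 108 and 81, and caffeine 109 and 73. Over all tested pairs, long divergent gaps had larger same-way shares than members in heat, MMS, ethanol and caffeine, at 24.9%, 28.2%, 32.5% and 32.7%. Their split shares were larger too, at 16.5%, 14.8%, 20.2% and 20.7% in the same order.

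Among pairs with both genes called, the share moving the same way was 71.7% of 219 members under MMS, against 61.0% of all neighbouring pairs with both genes called. It was 62.3% of 183 against 58.3% in heat, 63.5% of 296 against 59.0% under ethanol and 63.4% of 295 against 57.9% under caffeine. The long divergent gaps gave 60.2%, 65.6%, 61.7% and 61.2% by the same count. Tandem gaps of 1 to 400 bases gave 62.4%, 58.7%, 60.6% and 61.3%, and convergent gaps 52.9%, 58.5%, 54.8% and 52.6%. The compact divergent pairs were above the convergent pairs by this count in all 4 stresses. They were within 3 percentage points of the long divergent pairs except in MMS, and level with tandem pairs in heat. No test compared these classes of pairs, because neighbouring genes are not replicates of a condition.

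**Figure D2:**
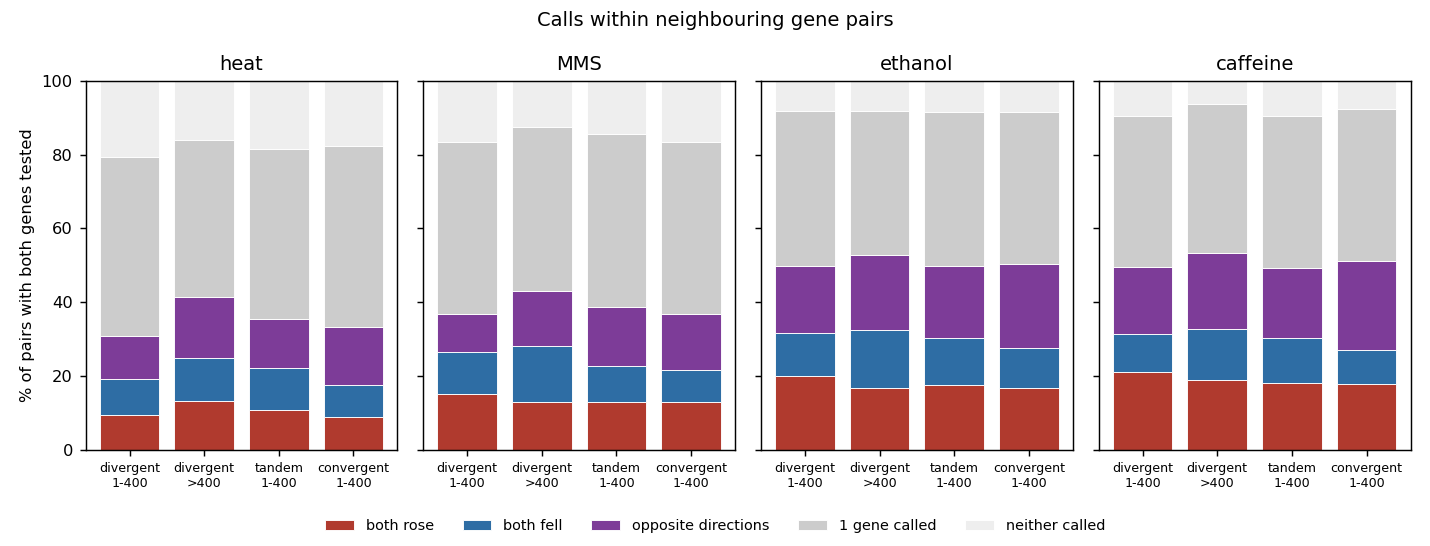
Share of neighbouring gene pairs, in % of pairs with both genes tested, by the calls of their genes (edgeR, adjusted p under 0.05) in 4 stresses. Bars stand for compact divergent (595 pairs), long divergent (784), tandem (1318) and convergent (1135) gaps, and the part for opposite directions is smallest in compact divergent pairs in each stress, from 10.4% in MMS to 18.2% in ethanol and caffeine.

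The sizes of the partners' changes were loosely related. Across the 595 members the Pearson correlation of the partners' log2 changes was 0.19 in heat, 0.31 in MMS and 0.24 in caffeine, and Spearman's was 0.19, 0.30 and 0.21. The points share their libraries and library scaling, and the values are a description across pairs. With each stressed library alone against the controls, Pearson's value ran from 0.18 to 0.21 in heat, 0.29 to 0.31 in MMS and stayed at 0.23 in caffeine, so no single stressed library carried it. In ethanol it was 0.01, and 0.21 by Spearman. Without the pairs in which a gene overlaps another, Pearson's value in ethanol was 0.23, so the low value rested on those pairs. The long divergent gaps gave Pearson values of 0.15, 0.19, 0.08 and 0.20 for heat, MMS, ethanol and caffeine and Spearman values of 0.14, 0.20, 0.20 and 0.18. Convergent pairs gave Spearman values of 0.05, 0.15, 0.08 and 0.07. Tandem pairs of 1 to 400 bases gave 0.18, 0.13, 0.17 and 0.15, close to the members in heat. Their Pearson values were 0.21, 0.14, 0.53 and 0.15, above the members in heat and ethanol. The 0.53 in ethanol stood far above the Spearman value of 0.17, and pairs with overlapping genes were not left out of it. By gap class up to 400 bases it ran from 0.12 to 0.70. MMS was the stress in which compact pairs stood farthest above long ones.

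**Figure D3:**
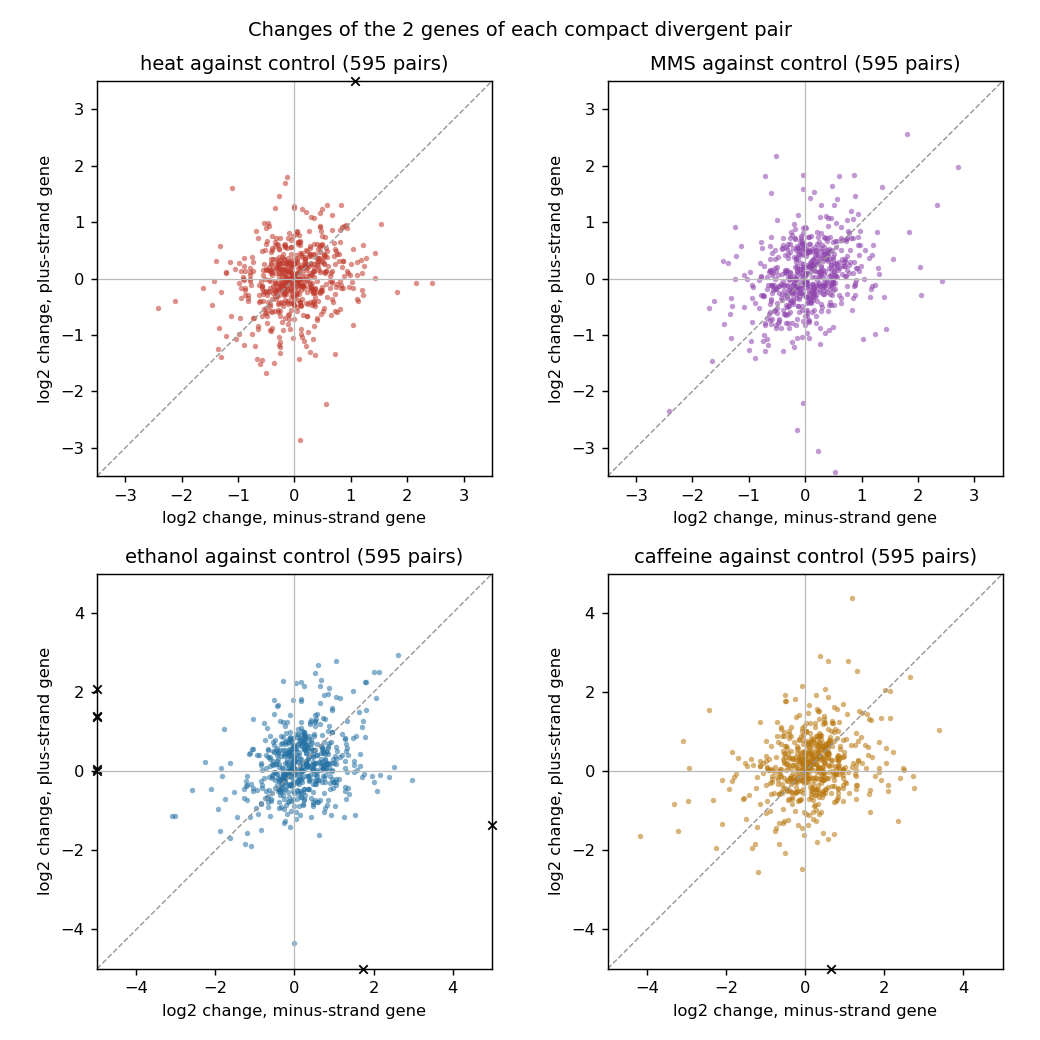
Log2 change against control of the plus-strand gene (vertical) and the minus-strand gene (horizontal) of each compact divergent pair, 1 point per pair, 595 pairs per stress. The dashed line marks equal change and crosses mark pairs beyond the axes. The clouds are wide, with Spearman correlations from 0.19 in heat to 0.30 in MMS.

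Partners in compact pairs ended closer to each other in their change than partners across long gaps, in step with the smaller changes of their genes. The median absolute difference of the partners' log2 changes was 0.40 in heat, beside 0.50 over 400 bases. It was 0.41 beside 0.47 under MMS, 0.60 beside 0.67 under ethanol and 0.59 beside 0.77 under caffeine. Divided by the median size of change in the same pairs, the difference was 1.33 beside 1.32 in heat, 1.21 beside 1.27 under MMS, 1.32 beside 1.41 under ethanol and 1.30 beside 1.45 under caffeine. Relative to how far the genes moved, the partners were thus as far apart in compact as in long gaps in heat, and less far apart in the chemical stresses. The partners changed within 1.5-fold of each other in 64.7% of members in heat and 66.9% under MMS, but in 48.7% under ethanol and 49.7% under caffeine. For all neighbouring pairs these shares were 57.3%, 58.7%, 44.6% and 43.6%. Members were at least 2-fold apart in 14.3%, 11.6%, 23.2% and 27.2%, in the same order, against 19.6%, 19.5%, 32.2% and 34.9% of all neighbouring pairs.

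A direct test of unequal change asked, with limma on the log2 ratio of plus-strand to minus-strand gene in each library, whether the ratio shifted from control to stress. It did so at a Benjamini-Hochberg adjusted p under 0.05 in 317 members in heat (53.3% against 60.3% of all neighbouring pairs) and in 326 under MMS (54.8% against 59.3%). Ethanol gave 401 (67.4% against 70.8%) and caffeine 398 (66.9% against 72.7%). Over 400 bases the shares were 63.6%, 59.9%, 69.1% and 75.5%. Moving the same way was often not moving by the same amount. Of the 114 members that moved together in heat, 36 also shifted in ratio (31.6%, against 44.2% of all same-way neighbouring pairs). In MMS it was 55 of 157 (35.0% against 41.0%), in ethanol 103 of 188 (54.8% against 55.2%) and in caffeine 100 of 187 (53.5% against 58.9%). A missed call does not show that partners changed equally. The gene that was higher in the control stayed the higher of its pair per kb in 90.3% of members in heat (90.4% for long gaps), 92.4% under MMS (92.5%), 86.6% under ethanol (88.3%) and 84.4% under caffeine (85.7%).

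The difference within a member also went with abundance. Split at the members' median of the lower gene's mean level, 22.9 CPM, the 298 more abundant members had a median difference of 0.318 in heat, and the 297 less abundant ones 0.523. At or above that level the 549 long divergent pairs had 0.478. For MMS the values were 0.359, 0.467 and 0.449, for ethanol 0.498, 0.647 and 0.672, and for caffeine 0.52, 0.626 and 0.77. The 235 long pairs below it had 0.582, 0.539, 0.658 and 0.752, which in ethanol and caffeine is not above their more abundant counterparts. Above this common minimum, compact pairs were thus closer in change than long ones in each stress, and the median size of change of their genes was smaller as well (0.283 against 0.365 in heat, 0.30 against 0.363 under MMS, 0.403 against 0.458 under ethanol and 0.417 against 0.529 under caffeine). Among pairs with both genes called, the more abundant members moved the same way in 66.3% of cases in heat, beside 60.9% of long pairs at that level. The values were 70.3% beside 64.7% under MMS, 61.6% beside 60.4% under ethanol and 61.2% beside 60.1% under caffeine. Below that level they were 57.6% of members beside 58.0% of long pairs in heat and 73.3% beside 67.7% under MMS. They were 65.5% beside 65.2% under ethanol and 65.7% beside 64.5% under caffeine, so only MMS held members more than 2 percentage points above long pairs there.

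Likeness of change did not fall steadily with gap length. In MMS the Spearman correlation of the partners' log2 changes was 0.24 in gaps of 1 to 100 bases (75 pairs), 0.33 in 101 to 200 (118), 0.37 in 201 to 300 (209) and 0.25 in 301 to 400 (193). It was 0.23 in 401 to 600 (222 pairs), 0.18 in 601 to 1000 (299) and 0.18 above 1000 (263). MMS came nearest to a decline, but from a peak at 201 to 300 bases and not from the shortest gaps. Convergent pairs in MMS gave 0.10, 0.21, 0.20 and -0.03 in the classes up to 400 bases, also not highest in the shortest. Whether the classes differ was not tested. In heat the same classes gave 0.21, -0.02, 0.28, 0.19, 0.08, 0.10 and 0.20. In ethanol they gave 0.26, 0.11, 0.23, 0.21, 0.14, 0.16 and 0.23, and in caffeine 0.23, 0.12, 0.23, 0.21, 0.16, 0.15 and 0.20. In these 3 stresses the gaps of 101 to 200 bases were the lowest of the 4 compact classes, and gaps above 1000 bases were no lower than gaps of 401 to 600.

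The share of same-way pairs among those with both genes called showed as little order. From the shortest class to the longest it was 65.4%, 44.1%, 69.5%, 64.1%, 57.5%, 58.9% and 63.0% in heat and 70.0%, 76.7%, 75.7%, 65.8%, 68.2%, 65.6% and 63.8% in MMS. In ethanol it was 67.6%, 58.8%, 63.9%, 64.0%, 60.7%, 60.7% and 63.6%, and in caffeine 60.5%, 61.0%, 63.5%, 66.0%, 63.1%, 59.0% and 62.3%. The heat value of 44.1% rests on 34 pairs of 101 to 200 bases, 15 of which moved the same way.

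The difference in size did grow with gap length over all divergent gaps, weakly. Over the 1379 tested divergent pairs the Spearman correlation of gap length with the absolute difference of the log2 changes was 0.14 for heat, 0.13 for MMS, 0.10 for ethanol and 0.16 for caffeine. Gap length was related to the mean size of the changes to a like degree, at 0.18, 0.13, 0.11 and 0.17. Within the 595 members the relation to the difference was -0.01, 0.05, 0.01 and -0.02, so gap length had no visible bearing on it below 400 bases. A larger median difference at long gaps was not confined to divergent pairs. Tandem pairs had a larger one above 1000 bases than at 1 to 100 in each stress (0.603 against 0.426 in heat). Convergent pairs, only 32 of them above 1000, also did in caffeine (0.718 against 0.623), heat (0.625 against 0.464) and MMS (0.519 against 0.485). In ethanol they did not (0.613 against 0.648). Rank correlations with gap length were computed for divergent pairs only. At the bound itself, 4 members had gaps of exactly 400 bases, and the nearest gap outside measured 401. Its genes, at chromosome 5 beside bases 885520 to 885920, changed by 0.74 and 0.10 on the log2 scale in heat and by 1.01 and 0.30 in MMS. Of the 4 members at 400 bases, the one at chromosome 2, bases 1096905 to 1097304, changed by 2.42 and -0.04 in MMS and the one at chromosome 3, bases 200120 to 200519, by -0.15 and 0.14. The one at chromosome 7, bases 788451 to 788850, changed by 0.15 and 0.15 in MMS, and the one at chromosome 2, bases 212065 to 212464, by -0.66 and -1.17. Both genes were called in MMS only in the last of these (edgeR adjusted p = 0.0157 and 1.05e-05). In the others the minus-strand gene alone was called. The ratio shifted in both members on chromosome 2 (limma adjusted p = 5.62e-09 and 0.0354). It was not called in those on chromosomes 3 and 7 (limma adjusted p = 0.11 and 0.959).

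**Figure D4:**
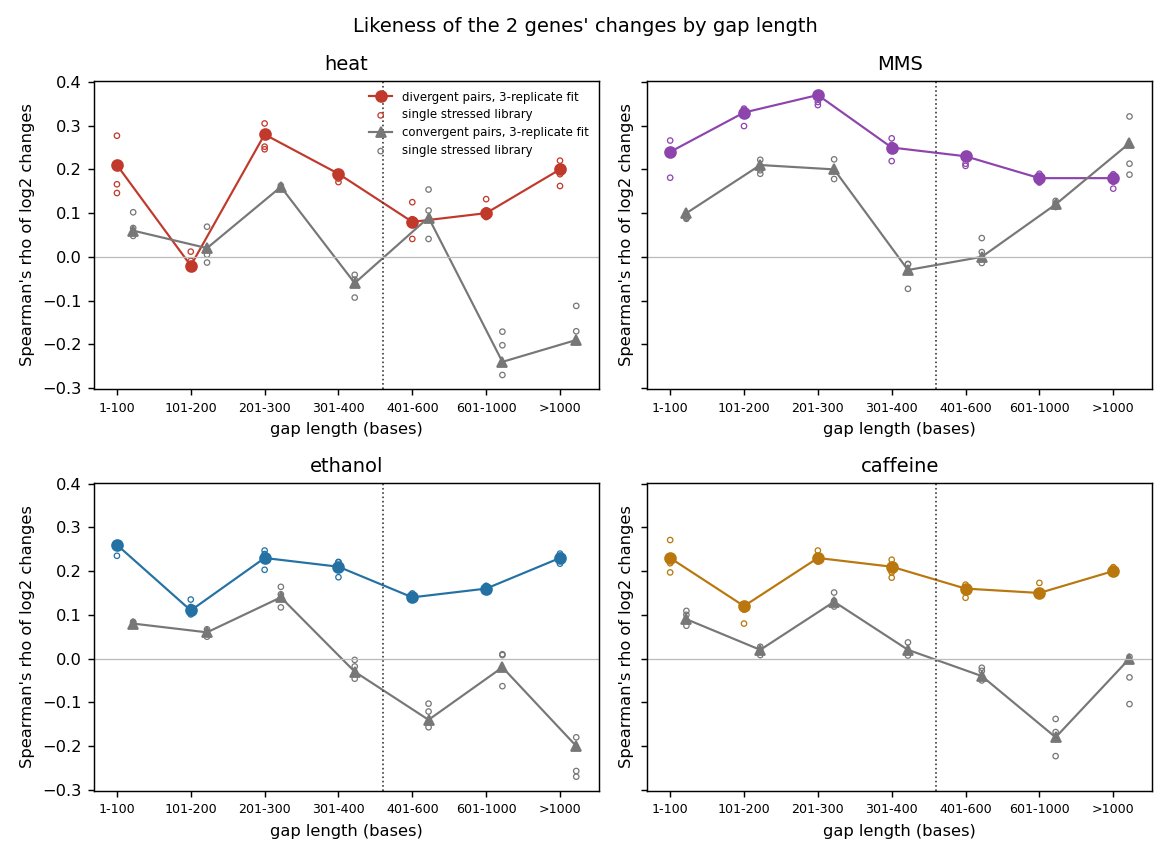
Spearman correlation of the partners' log2 changes by gap length in bases, for divergent pairs (coloured) and convergent pairs (grey) in 4 stresses, with filled marks for the fit of 3 replicates and open circles for each stressed library alone. The dotted line is the 400-base bound. Divergent values range from -0.02 to 0.37, highest in MMS at 201 to 300 bases, and show no steady fall with length.

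Single pairs show the range behind these figures. For each stress the pair that rose together and the pair that fell together with the largest change in the less changed gene were taken. They came from pairs free of overlap, with no overlap between the 3 stressed and 3 control libraries. Both genes also had an adjusted p under 0.05, so separation and call in the named stress followed from the choice. In heat the rising pair was KM020A05900 and KM020A05910, whose gap covers bases 1175074 to 1175458 of chromosome 1 (385 bases). The minus-strand gene KM020A05900 was at 195, 196 and 208 CPM in the control and at 625, 510 and 593 in heat. The plus-strand gene KM020A05910 was at 20.2, 22.4 and 24.1 CPM in the control and at 42.5, 43.2 and 45.1 in heat. All heat libraries lay above all controls for both genes. The log2 change was 1.53 ± 0.084 (SE) for the first gene (edgeR adjusted p = 6.9e-09) and 0.97 ± 0.10 for the second (adjusted p = 2.01e-06), and the first outran the second by 0.55 ± 0.13 (limma adjusted p = 0.00193). In MMS the same partners parted, with 134, 133 and 123 CPM for KM020A05900 and 33.3, 31.0 and 34.9 for KM020A05910. The first fell by 0.62 and the second rose by 0.57 on the log2 scale (edgeR adjusted p = 1.84e-05 and 0.000237).

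The pair with the largest joint fall was the same in heat and in ethanol, KM020B03910 and KM020B03920, with a gap of 8 bases (chromosome 2, bases 791843 to 791850). KM020B03910 was at 253, 257 and 235 CPM in the control, 81.4, 121 and 99.0 in heat and 70.4, 85.1 and 85.4 in ethanol. KM020B03920 was at 53.1, 57.9 and 48.0 CPM in the control, 14.6, 22 and 24.5 in heat and 15.8, 16.8 and 16.4 in ethanol. Neither group overlapped the control for either gene, and the partners fell by nearly the same factor. Any reads that reach across the 8 bases cannot be told apart from the neighbour's own, and ethanol also differed in counting method. In heat the log2 changes were -1.30 ± 0.12 and -1.39 ± 0.15 (edgeR adjusted p = 8.57e-07 and 3.46e-06) with a ratio shift of -0.09 ± 0.17 (limma adjusted p = 0.672). In ethanol they were -1.63 ± 0.12 and -1.70 ± 0.15 (edgeR adjusted p = 3.04e-08 and 1.39e-07) with a shift of -0.06 ± 0.17 (limma adjusted p = 0.751). Caffeine lowered both as well, to 56.2, 64.3 and 52.6 CPM and to 23.0, 17.3 and 22.8, but unequally, with a ratio shift of 0.77 ± 0.17 (limma adjusted p = 0.000611). In MMS neither was called (edgeR adjusted p = 0.166 and 0.0952).

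The MMS rising pair was KM020B01580 and KM020B01590, both scarce in the control, with a gap of 136 bases (chromosome 2, bases 318505 to 318640). KM020B01580 was at 3.78, 3.58 and 3.22 CPM in the control and at 23.2, 22.4 and 23.9 in MMS. KM020B01590 was at 3.89, 4.35 and 4.96 CPM in the control and at 16.3, 16.7 and 18.8 in MMS. Both were several times higher in each MMS library than in any control. The log2 changes were 2.71 ± 0.15 and 1.98 ± 0.23 (edgeR adjusted p = 4.7e-09 and 5.65e-06), with a ratio shift of -0.74 ± 0.18 (limma adjusted p = 0.00249). Ethanol and caffeine raised both genes too, by 1.73 and 1.28 and by 2.15 and 1.36. In heat KM020B01580 rose by 1.10 (edgeR adjusted p = 3.04e-05), whereas KM020B01590 was at 7.09, 3.15 and 3.12 CPM and was not called (edgeR adjusted p = 0.817).

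The MMS falling pair, KM020D02270 and KM020D02280, flanks a gap of 228 bases (chromosome 4, bases 480387 to 480614). KM020D02270 was at 252, 257 and 259 CPM in the control and at 89.9, 77.9 and 77.4 in MMS. KM020D02280 was at 109, 142 and 135 CPM in the control and at 47.6, 45.6 and 47.5 in MMS. All MMS libraries were below all controls, and the log2 changes of -1.65 ± 0.13 and -1.46 ± 0.31 (edgeR adjusted p = 1.53e-07 and 0.000965) were not told apart by the ratio test (shift 0.20 ± 0.24, limma adjusted p = 0.484). The partners did not stay together elsewhere. In caffeine KM020D02270 was at 187, 176 and 174 CPM and KM020D02280 at 515, 350 and 459, so that the first fell by 0.51 and the second rose by 1.78 (edgeR adjusted p = 0.00228 and 0.000108).

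In ethanol the pair that rose together was KM020H01870 and KM020H01880, across 162 bases (chromosome 8, bases 375288 to 375449). KM020H01870 was at 66.8, 61.4 and 70.1 CPM in the control and at 425, 375 and 418 in ethanol. KM020H01880 was at 50.2, 56.1 and 64.2 CPM in the control and at 500, 402 and 415 in ethanol. Both also rose in the other 3 stresses, which share the counting method of the control. The log2 changes in ethanol were 2.62 ± 0.099 and 2.95 ± 0.15 (edgeR adjusted p = 7.36e-12 and 4.52e-10). In caffeine they were 2.15 ± 0.097 and 2.04 ± 0.15 (edgeR adjusted p = 3.03e-10 and 1.91e-08), with a ratio shift of -0.10 ± 0.13 (limma adjusted p = 0.485). In heat they were 0.67 and 1.13 and in MMS 0.57 and 1.41, with the plus-strand gene ahead (limma adjusted p = 0.00617 and 6.57e-05).

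The caffeine rising pair was KM020F02450 and KM020F02460, separated by 7 bases (chromosome 6, bases 507596 to 507602). KM020F02450 was at 2.40, 2.68 and 2.79 CPM in the control and at 13.6, 16.9 and 19.4 in caffeine. KM020F02460 was at 2.23, 2.92 and 3.04 CPM in the control and at 14.2, 14.0 and 14.3 in caffeine. The log2 changes of 2.66 ± 0.28 and 2.38 ± 0.25 (edgeR adjusted p = 7.47e-07 and 8.63e-07) were not told apart by the ratio test (shift -0.26 ± 0.18, limma adjusted p = 0.204). In heat neither was called, and heat library 1 stood above the other two for both, at 5.93, 2.91 and 2.34 CPM for KM020F02450 and 6.07, 2.36 and 2.92 for KM020F02460. The same library was also the highest of the heat group for other scarce genes, such as KM020B01590. Strand use in most of the counting is not stated by the sources at hand, so reads of 1 gene's leader that reach its neighbour cannot be told apart from the neighbour's own at gaps this short.

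The caffeine falling pair, KM020B01090 and KM020B01100, is one of the 4 with a gap of 400 bases (chromosome 2, bases 212065 to 212464) and joined a highly abundant gene to a scarce one. KM020B01090 was at 24442, 27368 and 23232 CPM in the control and at 1444, 1456 and 1220 in caffeine. KM020B01100 was at 10.7, 11.6 and 11.2 CPM in the control and at 3.14, 3.54 and 4.02 in caffeine. Per kb they stood at 33621 and 4.55 in the control. Both were lower in each caffeine library than in any control, by -4.19 ± 0.25 and -1.65 ± 0.15 on the log2 scale (edgeR adjusted p = 2.23e-09 and 1.77e-07), and unequally (ratio shift 2.55 ± 0.19, limma adjusted p = 1.16e-08). Both fell in the other 3 stresses as well, by 1.21 and 1.01 in heat, by 0.66 and 1.17 in MMS and by 3.09 and 1.12 in ethanol.

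Split pairs were named by the same rule, which asks that all 3 libraries of that stress stand apart from the controls. In heat and in caffeine the pair was at chromosome 3, bases 44925 to 45286 (362 bases). Its minus-strand gene was at 184, 182 and 207 CPM in the control, 85.9, 92.2 and 88.1 in heat and 41.6, 30.8 and 33.9 in caffeine. Its plus-strand gene was at 377, 411 and 422 CPM in the control, 1527, 984 and 1153 in heat and 1186, 1222 and 1160 in caffeine. In both stresses the first was below and the second above all controls. The log2 changes were -1.11 and 1.6 in heat (edgeR adjusted p = 0.00299 and 1.3e-07) and -2.43 and 1.56 in caffeine (edgeR adjusted p = 2.6e-06 and 4.33e-08). In MMS the same partners both fell, by 1.70 and 0.53 (edgeR adjusted p = 0.000124 and 0.00169). In ethanol the minus-strand gene was spread over 70.1, 219 and 110 CPM, overlapped the control and was not called (edgeR adjusted p = 0.0939).

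The split pair of MMS lay across 26 bases at chromosome 6, bases 972142 to 972167. Its minus-strand gene was at 5.27, 5.13 and 7.44 CPM in the control and 11.7, 13.5 and 16.5 in MMS. Its plus-strand gene was at 78.7, 56.1 and 72.4 CPM in the control and 34.5, 35.5 and 34.7 in MMS. The changes of 1.23 and -0.98 (edgeR adjusted p = 0.00107 and 3.71e-05) were of opposite sign in ethanol and caffeine too (1.25 and -1.17, 1.62 and -0.57). In ethanol the split pair was at chromosome 1, bases 1665398 to 1665454 (57 bases). Its minus-strand gene was at 8.53, 7.63 and 7.56 CPM in the control, at 3069, 3193 and 3190 in ethanol and between 4.34 and 9.55 in every other library. That jump of 8.64 on the log2 scale coincides with the counting method of the ethanol files and cannot be told apart from it. Its partner fell in all 4 stresses, by 1.42 in heat, by 1.07 under MMS, by 1.36 under ethanol and by 1.61 under caffeine.

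The shortest gaps measured 2 bases and occurred in 3 members, of which the first in genome order, at chromosome 1, bases 253996 to 253997, is given in full. Its minus-strand gene was at 1113, 954 and 1002 CPM in the control, 1737, 1234 and 1422 in heat and 1588, 1570 and 1462 in ethanol. Its plus-strand gene was at 175, 181 and 195 CPM in the control, 231, 217 and 215 in heat and 167, 154 and 157 in ethanol. Both rose in heat (0.52 and 0.27, edgeR adjusted p = 0.000967 and 0.00345) and both fell in MMS (-0.43 and -0.34, adjusted p = 0.00357 and 0.000593). In ethanol the first rose by 0.59 and the second fell by 0.21 (edgeR adjusted p = 0.00022 and 0.0131). At chromosome 3, bases 303885 to 303886, both genes fell in ethanol (-1.29 and -0.67), and in heat and caffeine the minus-strand gene alone was called (-0.95 and -2.10, beside -0.17 and -0.22). At chromosome 6, bases 35306 to 35307, the minus-strand gene alone rose in ethanol and caffeine (0.83 and 2.05, beside 0.20 and 0.22) and the plus-strand gene alone fell in MMS (-0.67, beside 0.20).

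**Figure D5:**
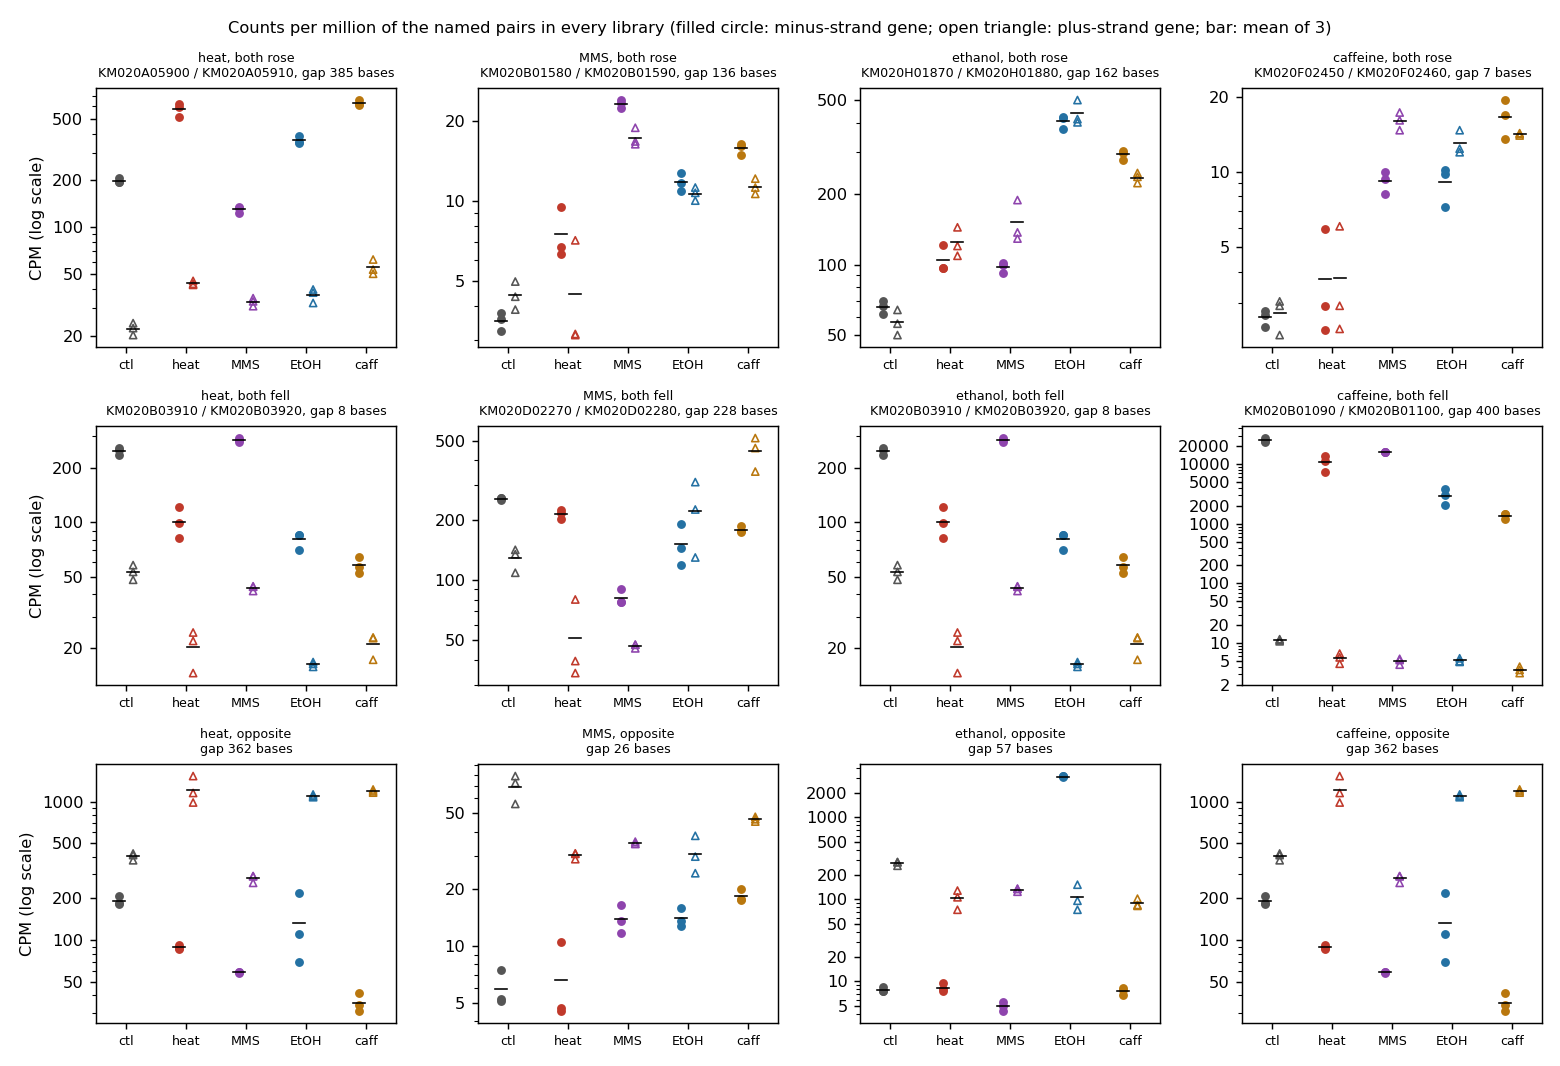
CPM of the named compact pairs in every library, on log axes that differ between panels: filled circles for the minus-strand gene, open triangles for the plus-strand gene, bars for the mean of 3. The upper row shows pairs that rose, the middle row pairs that fell and the lower row pairs that split in the stress named. The pair with a gap of 8 bases falls in parallel in heat and ethanol, and the pair with a gap of 362 bases parts in heat and caffeine.

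The 1208 member genes took a larger part of the library in each stress. They held 8.79%, 8.69% and 8.93% of gene counts in the control, 9.69%, 9.20% and 9.11% in heat and 9.99%, 9.73% and 9.99% in MMS. They held 12.2%, 11.8% and 11.9% in ethanol and 11.7%, 12% and 12% in caffeine. No stressed library overlapped the controls. The means were 8.80% ± 0.123, 9.33% ± 0.311, 9.91% ± 0.149, 12% ± 0.214 and 11.9% ± 0.184 (SD, n = 3), and each stress gave p = 0.1 by a 2-sided exact permutation test, the smallest p that 3 against 3 allows, with 0.1 after adjustment over the 4 stresses. The 10 most abundant control genes, 1 of which is a member gene, moved with this. They held 32.0% of control counts, 18.4% of heat counts, 23.6% under MMS, 7.21% under ethanol and 2.98% under caffeine. With those 10 genes left out, the member share was 10.2% in the control, 10.3% after heat, 11% under MMS, 12.5% under ethanol and 12.1% under caffeine, so that heat and control overlapped (10.1% to 10.5% against 10.2% to 10.3%) and the other 3 stresses stayed above the control.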

How the data were processed

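Titles gave each library's group and replicate. Deposited values are raw counts per gene part, unnormalized. TopHat and HTSeq stand in the submitters' processing notes, with no version. The 12 files outside ethanol have the HTSeq layout. For ethanol the authors used featureCounts 1.6.3 over exons, with no strand option, per the file headers. Genome build and the strand setting of HTSeq are not given in the sources used here. Parts were summed to 5207 genes. Reads on no feature (4.56% to 7.75% in the 12 HTSeq-style libraries) and ambiguous reads (1.13% to 1.64%) stayed out of library sizes and tests.

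Gaps were measured between gene ends in the ethanol files. The members, the classes of comparison and the rule for named pairs were chosen with earlier results of these data known. After filterByExpr and TMM scaling (factors 0.712 to 1.36), 5098 genes in all 15 libraries entered edgeR's quasi-likelihood test (edgeR 4.0.16 under R 4.3.3) with group as the sole term. The biological coefficient of variation was 0.108. The within-pair ratio was the difference of log2 CPM (prior count 2), fitted in limma 3.58.1 with a trend over the 4965 neighbouring pairs that had a gap of 1 base or more and both genes tested. Both tests are 2-sided. Their p-values were Benjamini-Hochberg adjusted over all genes or pairs fitted and called under 0.05. p-values measure the spread between 3 cultures per group. On simulated counts with 200 changed genes among 5098, edgeR found 94.0% to 98.5% of the 2-fold changes over the 4 comparisons (79.1% to 86.6% at 1.5-fold). The ratio test found 88.4% to 94.6% (52.0% to 59.2% at 1.5-fold). False calls were 3.16% to 4.19% of edgeR's and 2.23% to 3.60% of the ratio test's, but 6.38% of the latter in MMS, above the threshold used. Far more genes were called in the data than were changed in the simulation, so these rates need not hold for the data.

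A pair was named per stress if both genes passed, had 10 CPM in the higher group, stood apart from all controls and overlapped no gene, ranked by the less changed gene. The first of the shortest gaps, the pair with the highest lower gene and the gaps at the 400-base bound were also described. Alternatives were RLE scaling, DESeq2 1.42.0, no filter, smaller fits, a replicate block, each replicate left out, a 2-fold minimum, other gap bounds, no overlapping genes, a 10 CPM minimum, Spearman correlation, a prior count of 0.5, no trend and levels without length.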

Additional observations from a re-analysis of the deposited data

How the results depend on the processing

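No correlation, difference or named gene changed sign under the alternatives run, except the ethanol correlation given below, which lay near 0. The balance of members with both genes up or down in MMS turned from 89 and 68 to 73 and 77 with RLE scaling. The 36 values computed with DESeq2, 52 with RLE scaling and 40 with the replicate block kept their direction and call, or stayed within 1.5 times the main count or within 1 SD between libraries. A 2-fold minimum left 7.107%, 7.86%, 16.89% and 17.14% of member genes called in heat, MMS, ethanol and caffeine, with 0.8403%, 1.345%, 4.034% and 3.866% of pairs moving together and 0.1681%, 0.1681%, 1.513% and 0.6723% split. Fitting only the 6 libraries compared gave 7.666% split pairs in heat. The correlation of partners' changes was 0.2170 in heat, 0.2896 in MMS and 0.1951 in caffeine with both genes at 10 CPM or more. It was 0.3443 in MMS, -0.0077 in ethanol and 0.2443 in caffeine for gaps of 1 to 300 bases, and 0.1776 in heat and 0.2266 in caffeine for gaps of 101 to 400, a bound chosen after seeing the data. It was 0.2304 in ethanol without overlapping genes, 0.2086 in ethanol and 0.2089 in caffeine by Spearman, and 0.2457 in caffeine without the count filter. The median difference was 0.391 in MMS for gaps up to 300 bases and 0.3888, 0.5481 and 0.5524 in MMS, ethanol and caffeine at 10 CPM. In the control, both genes at 10 CPM gave a level correlation of 0.1323, a fold of 2.26 and a level of 32.2 CPM per kb, absence of overlaps a fold of 2.41, and CPM without length a fold of 2.62 and a level of 35.5 CPM. Without the 10 most abundant control genes, a choice made after seeing the data, the member share rose over control by 0.0501, 0.802, 2.30 and 1.84 percentage points in heat, MMS, ethanol and caffeine. The cause was not tested in any of these cases.

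With each replicate left out in turn, the correlation ran from 0.2887 to 0.3253 in MMS and 0.2351 to 0.2481 in caffeine, and the median difference from 0.3864 to 0.4492 in heat and 0.4062 to 0.4334 in MMS. Shares that rest on calls were mostly lower. Members moving together were 14.77% to 18.12% in heat, 20.64% to 22.82% in MMS, 28.02% to 30.03% in ethanol and 27.35% to 31.04% in caffeine. All 15 libraries gave 19.16%, 26.39%, 31.6% and 31.43%. Ratio shifts ran from 45.64% to 49.16% in MMS against 54.79%, but reached 53.69% in heat against 53.28%. Replicate numbers were not used to pair the samples in the main fits. Residuals of same-numbered libraries correlated at -0.277 to 0.472, with a median of 0.00647 against -0.0242 between different numbers. Of the 15 libraries, 10 were closest to their own number. Whether equal numbers mark a shared handling was not tested. With the replicate block 19.16%, 26.72%, 32.44% and 31.93% of members moved together and 54.29%, 54.96%, 67.9% and 67.06% shifted in ratio. Unmapped transcription starts and unstated strand use limit the shortest gaps.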

Other observations

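Compact divergent partners also tended, weakly, to vary together within groups, where no stress differs, with all groups pooled. After subtraction of each group's mean, the correlation of the partners' log2 CPM over the 15 libraries had a median of 0.20 over 595 members (quartiles -0.12 and 0.46), with 65.7% above 0. The median was 0.14 over long divergent gaps, 0.10 over tandem and 0.05 over convergent gaps of 1 to 400 bases, and it was 0.19, 0.14, 0.10 and 0.06 without the ethanol libraries. The pairs share their libraries, and the part of culture differences in these values was not tested.

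In the gap with the most abundant lower gene (chromosome 5, bases 548313 to 548650), the minus-strand gene was at 1479, 1267 and 1236 CPM in the control and 2062, 1868 and 1947 in heat, while its partner was at 502, 563 and 581 and at 92.3, 133 and 125. The partners split in heat, by 0.56 and -2.23 on the log2 scale (edgeR adjusted p = 5.65e-05 and 1.9e-08), and the plus-strand gene fell in the other 3 stresses as well, by 1.29 in MMS, 1.40 in ethanol and 2.06 in caffeine.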
